A study of Salmo salar with 30 samples.

Results

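The comparison set 5 Atlantic salmon fed soybean meal against 5 fed corn gluten, both feeds without a package of additives. The arrays of each diet were taken by the sample labels, and they are 10 of the 30 arrays of the series, 1 array per fish. Total RNA of the distal intestine, the hindmost gut segment, was hybridised to 1-colour arrays of 14841 probes. The study tested functional feed ingredients against gut inflammation. Its fish, of 177 g at stocking, were kept in 18 tanks for 67 days at 11.2 °C. The labels do not tie a fish to a tank, so p-values treat fish as independent. The 30 fish outnumber the 18 tanks, so some fish of the series shared a tank. How the tanks were divided over the diets is not given. If they were divided evenly, each diet had fewer tanks than its 5 fish, and some fish of 1 diet shared a tank. All p-values, those of permutation tests included, may then be too small. Neither a strain nor an age is given in the labels.

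Of the feeds compared, one held soybean meal and the other corn gluten. The names of the deposited files mention pea beside corn for the corn gluten feeds, which the labels do not. The other diets enter as separate fish. Soybean meal + P1 held arginine at 1.5% with butyrate at 0.01%. Soybean meal + P2 held nucleotides at 0.05%, butyrate at 0.01% and β-glucan at 0.1%. Corn gluten + P2 held the same P2 additives, and the control feed had a high level of fish meal and no package. Each of these diets also had 5 fish.

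The distal intestine of salmon takes up nutrients, including intact macromolecules, and holds many immune cells. Soybean meal is the classic dietary trigger of inflammation in this segment, in which the mucosal folds shorten, the absorptive cells lose their vacuoles and immune cells enter the tissue. Soybean saponins are regarded as its main agent. Corn gluten, the protein fraction of maize, is used in salmon feeds as a plant protein of a different origin, so the comparison contrasts plant proteins rather than a plant protein with fish meal.

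The filter on dim signal kept 13577 of the 14841 probes, those that 5 or more of the 30 arrays showed well above background. Levels are log2 signals relative to the 75th percentile of their array, so 0 is that percentile. No table used here links a probe to its gene, so no gene, pathway or cell type could be named. For the same reason the tissue label could not be checked against marker genes. In this bulk tissue, fewer cells of a type and less RNA per cell cannot be told apart.

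Measures of the whole array did not differ between the diets beyond the spread among fish. On average, 12981 ± 207 probes were well above background with soybean meal and 12975 ± 149 with corn gluten (SD, n = 5 each; exact two-sided permutation p = 0.960). The 75th percentile of the log2 signal was 9.64 ± 0.08 with soybean meal and 9.53 ± 0.15 with corn gluten (exact permutation p = 0.167, adjusted p = 0.667 over 4 measures). The 100 brightest probes held 34.1% of the summed signal with soybean meal and 34.03% with corn gluten (exact permutation p = 0.944). Single fish lay 0.604 log2 units from the mean of the other fish of their diet with soybean meal and 0.594 with corn gluten (root mean square over probes, permutation p = 0.762). These distances were not recomputed for each arrangement, and those of 1 diet depend on each other, so this p is not exact. With 5 fish against 5 the smallest p possible is 0.00794.

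The arrays lay on 6 slides, and both diets were present on slide 4 alone. Soybean meal fish 1 and 2 were on slide 3, fish 3 and 4 on slide 5 and fish 5 on slide 4. Corn gluten fish 1, 2 and 5 were on slide 4, and fish 3 and 4 on slide 6.

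The distal intestine differed widely between these diets. In limma, 3325 of 13577 probes (24.5%) passed an adjusted p of 0.05. With soybean meal 1422 probes (10.5%) were higher and 1903 (14.0%) were lower. Without adjustment 4948 probes had a p below 0.05. Higher probes thus made up 42.8% of those that passed, a share that was 56.8% in the authors' deposited value table, where 2930 probes passed.

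Most of the differences were modest in size. Among the higher probes the median log2 difference was 0.63, with quartiles of 0.44 and 1.01. Among the lower probes it was −0.72, with quartiles of −1.13 and −0.50. Of all that passed, 1317 differed by less than 1.5-fold. A difference of more than 2-fold was found for 362 higher and 601 lower probes. Past 8-fold there were 17 higher and 34 lower probes, and past 32-fold 1 higher and 5 lower. The median difference over all tested probes was −0.02.

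Fish of the diets often did not overlap at all. Among 13482 probes with a value in all 10 fish, the diets did not overlap at 2129 (15.8%), with every soybean meal fish above every corn gluten fish at 837 (6.21%) and below at 1292 (9.58%). Of the 3297 probes that passed and had all 10 values, 1952 showed no overlap, 765 above and 1187 below. The same 10 fish decided which probes passed, so this last count is a description.

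The share of probes that passed grew with signal. The probes were put into 4 signal bins of equal size by their mean over all 30 arrays. In the dimmest bin 14.2% passed, and the shares in the next bins were 21.1%, 27.5% and, in the brightest, 35.3%. Among probes that passed, the median size of the difference ran the other way, at 1.20 log2 units in the dimmest bin, then 0.75, 0.64 and 0.57. These medians leave out probes that did not pass, so they do not compare the size of all differences between bins. In the dimmest bin 324 of the 481 that passed were lower with soybean meal, while the brightest bin held 580 higher and 617 lower. Grouped by the prefix of their identifiers, between 17.3% (Ssa#DY, 492 probes) and 31.1% (Ssa#GRASP, 3094 probes) passed. In the Ssa#GRASP group 527 were higher and 436 lower, and in the Ssa#S group, which held 5100 probes, 497 were higher and 756 lower.

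**Figure D1:**
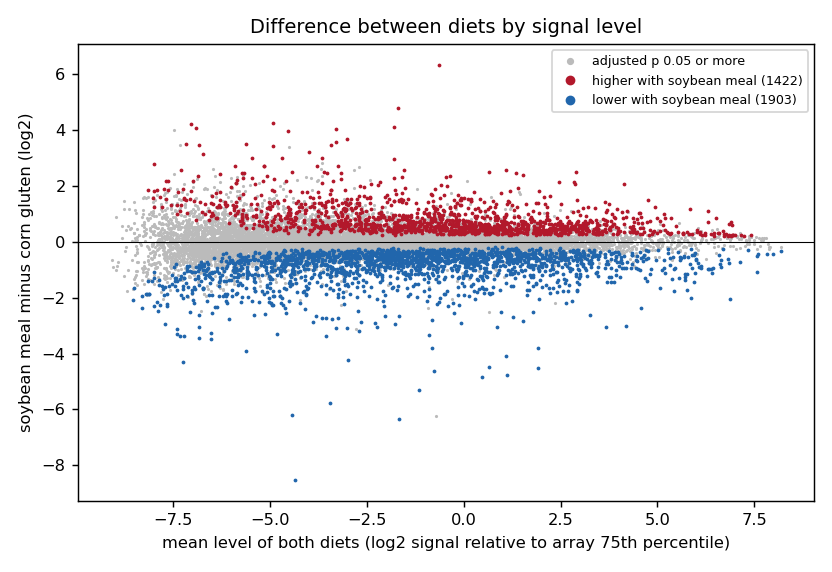
Each point is 1 of 13577 probes, with its mean level in both diets on the x axis and the log2 difference, soybean meal minus corn gluten, on the y axis. Red points were higher (1422) and blue points lower (1903) with soybean meal at an adjusted p below 0.05. The widest differences on both sides belong to dim and middle levels.

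Among dim probes the difference moved with the place of the probe on the array. The probes form a grid of 82 columns and 192 rows. In the dimmest bin, the mean log2 difference of soybean meal minus corn gluten was 0.24 in columns 1 to 21, 0.19 in columns 22 to 41, −0.19 in columns 42 to 61 and −0.37 in columns 62 to 82. The share that passed as lower with soybean meal was 3.84% in the first of these column ranges and 18.7% in the last. In the brightest bin the 4 means lay between −0.05 and −0.03, and the share that passed as lower was 17.1% to 18.9%. On average, dim probes on the left were higher with soybean meal and dim probes on the right lower, and the means of bright probes showed no such change across columns.

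The gradient could be read fish by fish. For the dimmest bin, the mean of columns 62 to 82 minus that of columns 1 to 21, each relative to the probe's mean over all arrays, was −0.62, 0.08, −0.40, −0.66 and −0.83 in soybean meal fish 1 to 5. It was 0.84, −0.71, 0.41, 0.28 and −0.16 in corn gluten fish 1 to 5. Both signs occurred in each diet, and corn gluten fish 2 and 5 lay within the range of the soybean meal fish. The P2 diets differed the other way, with 0.78, 0.74, 0.64, 0.68 and −0.37 in soybean meal + P2 fish and −0.92, −0.61, −0.53, 0.51 and −0.22 in corn gluten + P2 fish. The values also went with slide in part. Over all diets, every array on slide 5 was negative and every array on slide 2 positive, while slides 1, 3, 4 and 6 held both signs. Whether the gradient went with diet or with slide was not tested.

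Because of this pattern, the main counts were also taken in other ways, chosen after the data had been seen. In the first, each array's median deviation within blocks of the grid and signal levels was removed. In limma 3751 probes then passed, 1865 higher and 1886 lower with soybean meal, and 2912 of the 3325 probes were among them. In the second, only probes brighter than the median probe were tested, and 2394 of 6789 passed, 1116 higher and 1278 lower. How much of the difference at dim probes came from the array surface was not tested further.

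**Figure D2:**
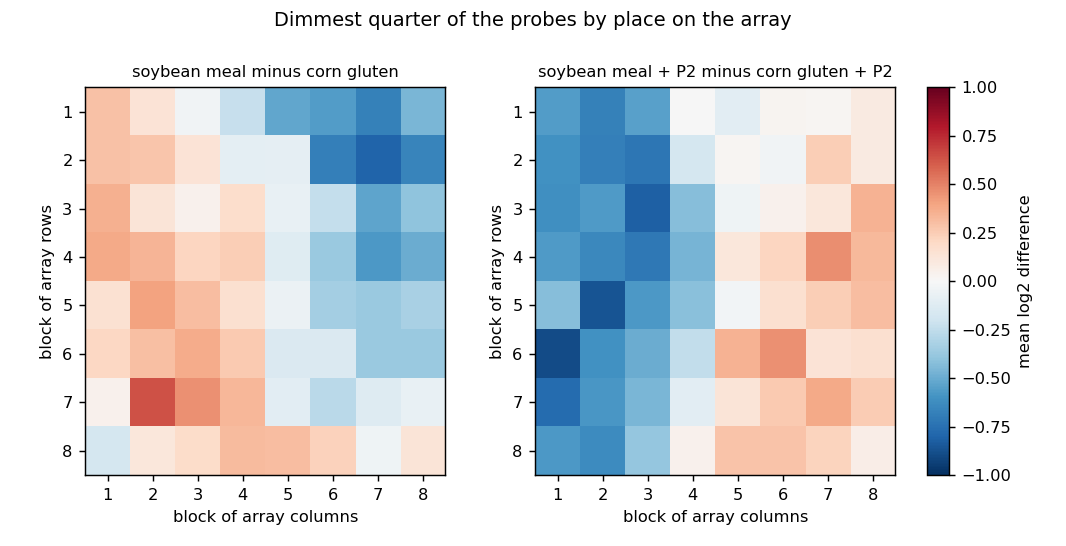
Mean log2 difference of the dimmest bin of probes in 64 blocks of array columns (x axis) and array rows (y axis), with 35 to 68 probes a block. The left panel shows soybean meal minus corn gluten, with block means of −0.80 to 0.64, and the right panel shows soybean meal + P2 minus corn gluten + P2, with block means of −0.89 to 0.47. Positive blocks lie mostly on the left in one panel and on the right in the other.

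The probes described one by one are those with the highest and lowest differences among the probes that passed and were well above background in all 10 fish, of which there were 3088. All of them belonged to the second brightest signal bin, and all were well above background on all 30 arrays.

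Ssa#S47729315 separated the diets most on the higher side. Its level was 1.81, 3.04, 2.60, 2.37 and 2.80 in soybean meal fish 1 to 5, and −4.07, −2.44, −3.93, −4.18 and −4.45 in corn gluten fish 1 to 5. Every soybean meal fish was far above every corn gluten fish, among which fish 2 was the highest. The difference was 6.33 ± 0.44 log2 units (SE, limma adjusted p = 2.26e-10), about 80.7-fold. In the control diet the same probe averaged −4.39 ± 0.30, close to corn gluten at −3.81 ± 0.79 (SD, n = 5 each).

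The probe Ssa#GRASP223647763 had a level of 0.62, 0.17, 0.85, 0.45 and 1.44 in soybean meal fish, against −3.97, −3.58, −3.50, −4.35 and −5.04 in corn gluten fish. These groups did not overlap either. The difference was 4.79 ± 0.45 (SE, limma adjusted p = 1.16e-07), about 27.7-fold. Control fish averaged −3.84 ± 0.13 at this probe, and corn gluten fish −4.09 ± 0.63 (SD, n = 5 each).

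On the lower side, Ssa#S30235658 had a level of −4.65, −5.47, −4.82, −4.74 and −4.48 in soybean meal fish, against 1.39, 0.28, 1.86, 1.46 and 2.48 in corn gluten fish. All soybean meal fish lay in a narrow band far below the corn gluten fish. The difference was −6.32 ± 0.51 (SE, limma adjusted p = 5.20e-09), about 80.0-fold. Control fish averaged 2.35 ± 0.81 at this probe, above corn gluten at 1.49 ± 0.80 (SD, n = 5 each), and corn gluten minus control was −0.85 ± 0.51 (SE, limma adjusted p = 0.870).

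Ssa#GRASP209733777 varied most among fish of 1 diet. Its level was −2.37, −3.55, −2.11, −0.91 and −0.87 in soybean meal fish and 1.50, 3.89, 1.85, 3.89 and 3.32 in corn gluten fish. The diets did not overlap, at a difference of −4.85 ± 1.25 (SE, limma adjusted p = 0.00567), about 28.9-fold. In control fish the spread was wider still, with −4.87 in fish 1 and 1.65 to 3.36 in the other fish. Without the soybean meal and corn gluten fish of the shared slide, the difference was −5.11 ± 1.81 and did not pass (SE, limma adjusted p = 0.0848). Only corn gluten fish 3 and 4 were left there.

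Within the shared slide, 1 soybean meal fish could be set against 3 corn gluten fish. There the differences were 6.45 for Ssa#S47729315, 5.64 for Ssa#GRASP223647763, −5.86 for Ssa#S30235658 and −3.77 for Ssa#GRASP209733777. Among the probes that passed over all fish, 1409 of 1421 higher and 1890 of 1898 lower probes kept their direction within that slide, with median differences of 0.62 and −0.66. These fish are among the 10 whose difference chose the probes, so that share is a description, and over all probes 81.6% had the same direction in the slide as in all fish. A fit that added slide as a block gave the same direction for each of the 3325, with a median size of 0.68. In it 1825 of all 13577 probes passed, 1712 of them among the 3325. Without the fish on that slide 1089 probes passed, 1052 of them among the 3325. That fit kept soybean meal fish 1 to 4 and corn gluten fish 3 and 4, which share no slide. The median SE over the 3325 was 0.17 in the main fit and 0.23 without the fish of slide 4. Both fits used fish that chose the 3325, so the kept direction is again a description.

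Many probes followed these over the series. A correlation above 0.9 in size over the 30 arrays was found with Ssa#S47729315 for 140 other probes, of which 78 were positive. For Ssa#S30235658 there were 161, of which 84 were positive. For Ssa#GRASP223647763 43 were positive, fewer than the negative ones. For Ssa#GRASP209733777 there was 1 such probe, a positive one. These arrays share diets and slides, so the counts describe likeness over the series.

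**Figure D3:**
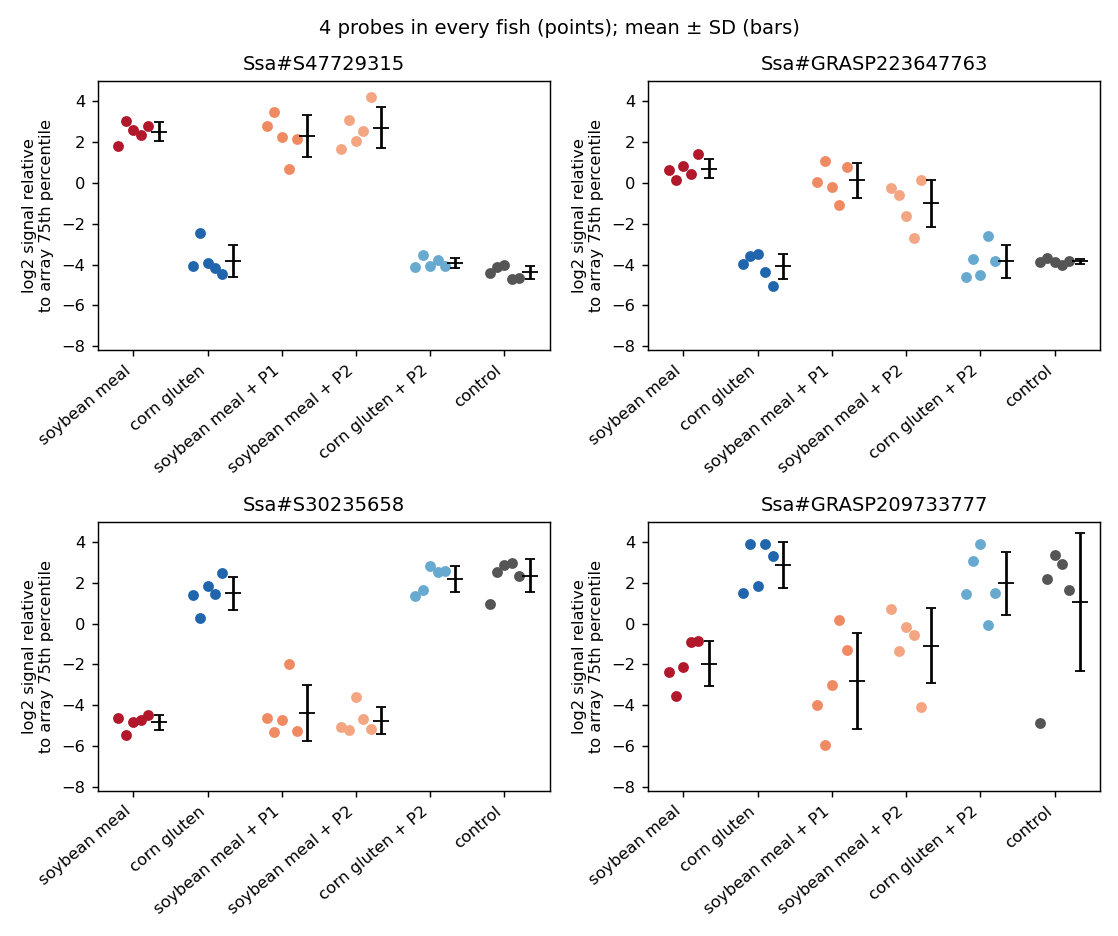
Level of the 4 probes in every fish, on the log2 scale with 0 at the 75th percentile of the array (y axis), by diet (x axis). Points are single fish, and bars are the mean ± SD of 5 fish. Soybean meal and corn gluten do not overlap at any of the 4 probes, and control fish lie with corn gluten fish except for control fish 1 at Ssa#GRASP209733777, at −4.87.

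Few probes were detected with one diet alone. Of the 13577 probes, 11987 were well above background in all 10 fish. There were 11 probes detected in all 5 soybean meal fish and in 0 of 5 corn gluten fish, and 15 with the reverse. All of them passed in limma, which compared the same fish that picked them, so this is a description. For a probe not well above background in a diet, the fold is a lower bound, in which that diet is set at the higher of the lowest signal well above background and the probe's own signal. The 11 probes of soybean meal were at least 1.33-fold to 5.01-fold higher with soybean meal, with a median bound of 2.28. The 15 probes of corn gluten were at least 1.45-fold to 147-fold lower with soybean meal, with a median bound of 2.79, and apart from the highest the bounds reached 4.59.

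The fish of the other diets took no part in choosing these probes. All 11 of the soybean meal probes were detected in more soybean meal + P2 than corn gluten + P2 fish. Of the 15 corn gluten probes, 9 were detected in fewer soybean meal + P2 than corn gluten + P2 fish and 5 in more. In control fish, 0 of the 11 soybean meal probes were detected in all 5 fish and 5 in none. Of the 15 corn gluten probes, 9 were detected in all 5 control fish and 1 in none. The same counts over all probes, or over probes as dim, were not taken, so these numbers are a description. These probes are dim, and the counts depend on single fish. The 11 became 19 without soybean meal fish 2 and 21 without corn gluten fish 2, and the 15 became 25 without soybean meal fish 1.

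The same contrast was measured again in fish with package 2 in both feeds. They share no array with the first pair but share slides with it. The P2 diets shared no slide. Soybean meal + P2 fish 1 and 2 were on slide 2, fish 3 and 4 on slide 4 and fish 5 on slide 6. Corn gluten + P2 fish 1, 2 and 5 were on slide 5, and fish 3 and 4 on slide 1. Slides 4 and 6 thus held all corn gluten fish and soybean meal + P2 fish 3 to 5. Slide 5 also held soybean meal fish 3 and 4. A slide effect there would enter both pairs with opposite signs. In limma, soybean meal + P2 minus corn gluten + P2 gave 2563 probes past the threshold (18.9%), 1206 higher (8.88%) and 1357 lower (9.99%). The split was 1796 higher and 953 lower with array medians and 1427 higher and 1107 lower with quantile normalization, and 1142 probes passed with slide as a block. Of the 1422 probes higher with soybean meal, 1318 (92.7%) had the same sign in the P2 diets, and 689 passed there with that sign and 9 with the other. Of the 1903 lower probes, 1566 (82.3%) had the same sign, 661 passed with it and 7 passed with the other. Over all 13577 probes 64.2% had the same sign. The order of these shares turned with normexp background correction, in which 84.8% of the same higher probes and 89.8% of the same lower probes kept their sign. With array medians as the scale the shares were 94.9% and 73.6%, and with slide as a block 92.6% and 89.0%. The 1350 probes that passed in both pairs with the same sign made up 40.6% of the first list and 52.7% of the second.

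The share that kept its sign was smaller among dim probes, both higher and lower. Among probes brighter than the median probe, 97.6% of the higher and 91.6% of the lower probes had the same sign in the P2 diets. Among the dimmer probes these shares were 81.7% and 68.3%. The share over all brighter or all dimmer probes was not taken, and over all 13577 probes it was 64.2%. Of the probes that differed more than 2-fold, 401 of 412 brighter ones and 379 of 551 dimmer ones kept their sign. The 140 lower probes of that size with the opposite sign had a median level of −5.31, and 136 of them lay in columns 42 to 82. The 43 higher probes with the opposite sign had a median level of −5.37, and 35 of them lay in columns 1 to 41. For the 461 lower and 319 higher probes with the same sign, 242 and 147 lay in columns 42 to 82. Those same-sign sets were brighter, with median levels of −1.33 and −2.92. Over all 13577 probes, 6803 lay in columns 42 to 82. These sets were picked by size and sign, so their places are a description.

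Removal of the block medians from each array changed the sign shares of the full lists little, to 93.3% of the 1422 higher and 82.4% of the 1903 lower probes. Of the probes called from the corrected values, 89.8% of 1865 higher and 83.5% of 1886 lower ones had the same sign in the P2 diets.

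The differences chosen in one pair were smaller in the other, whichever pair chose them. The higher probes of the first pair had a median log2 difference of 0.63 without a package and 0.42 with P2, and the lower probes −0.72 and −0.32. The 1206 probes higher with soybean meal + P2 had a median of 0.51 in the P2 diets and 0.38 in the diets without a package, and the 1357 lower probes −0.78 and −0.45. Of the 51 probes past 8-fold in the first pair, 48 had the same sign and 40 passed with P2.

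Of the named probes, Ssa#S47729315 differed by 6.64 ± 0.44 between the P2 diets (SE, limma adjusted p = 2.29e-10). Ssa#S30235658 differed by −6.95 ± 0.51 (SE, limma adjusted p = 1.01e-09). Ssa#GRASP223647763 differed by 2.85 ± 0.45 (SE, limma adjusted p = 0.000193), less than the 4.79 found without a package, and the difference between both pairs was 1.95 ± 0.64 (SE, limma adjusted p = 0.132). Ssa#GRASP209733777 differed by −3.06 ± 1.25 between the P2 diets and did not pass (SE, limma adjusted p = 0.0851).

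**Figure D4:**
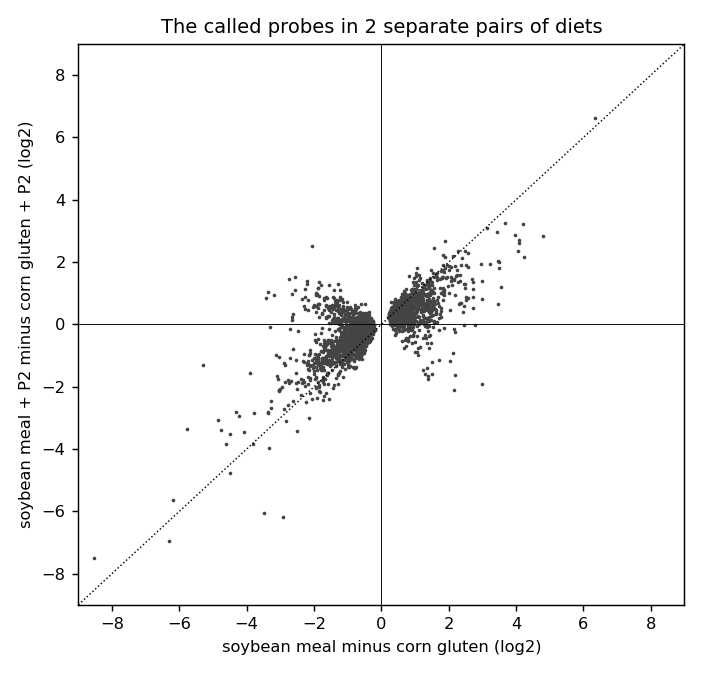
Each point is 1 of the 3325 probes that passed between soybean meal and corn gluten, with its log2 difference without a package (x axis) and the log2 difference of soybean meal + P2 minus corn gluten + P2 in separate fish (y axis). The dotted line marks equal differences. Most points lie in the lower left and upper right, and 183 probes past 2-fold lie in the other quadrants, mostly at dim levels.

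The difference between both pairs, tested directly as an interaction in limma, passed at 14 of 13577 probes (0.103%), with a smallest adjusted p of 0.0365. Without adjustment 2385 probes had a p below 0.05. Of the 14 probes, 13 were among the 3325, 12 were dimmer than the median probe and 13 had opposite signs in the pairs. The interaction includes the soybean meal minus corn gluten difference of the same fish, which favours overlap with the 3325 and opposite signs. A slide effect can enter the interaction too, as the pairs lay on shared slides in opposite roles. With slide as a block in limma the count was 0, and 916 probes had an unadjusted p below 0.05. The count was 0 when probes brighter than the median probe were tested alone, where 927 probes had an unadjusted p below 0.05, and 110 after removal of the block medians. Leaving out 1 fish in turn gave 0 to 341 probes, with 0 for each of 10 fish and 341 without soybean meal + P2 fish 5.

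A summary over the 3325 probes placed every fish of the series along the difference between both diets. The mean level of the higher probes minus that of the lower probes was scaled so that the corn gluten mean was 0% and the soybean meal mean 100%. These fish chose the probes, so their own separation is given as a description. Soybean meal fish lay at 107%, 98.8%, 111%, 89.0% and 94.2%, and corn gluten fish at 2.67%, 6.26%, 12.03%, −0.17% and −20.8%. The fish of the remaining diets did not enter the difference that chose the probes, but they entered the filter and the shared estimate of the spread. With only the 10 fish compared in the fit, 2567 probes passed, 2416 of them among the 3325.

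Soybean meal + P1 fish averaged 87.2% ± 19.5 and ranged from 54.5% in fish 4 to 103% in fish 1 (SD, n = 5). Soybean meal + P2 fish averaged 61.6% ± 15.0, with 63.0%, 70.8%, 46.5%, 46.9% and 80.6% in fish 1 to 5. Corn gluten + P2 fish averaged 9.94% ± 9.60, and control fish 2.02% ± 15.9 with a range of −16.8% to 25.6%. Every fish fed soybean meal, with or without a package, lay above every fish of the other diets. The soybean meal and corn gluten fish chose the probes and set the scale. That choice can make other fish fed soybean meal fall short of the soybean meal mean, and how much of the shortfall came from it was not tested. Slides were not balanced over these diets. Soybean meal + P2 fish 3 and 4 were on slide 4 with corn gluten fish 1, 2 and 5 and soybean meal fish 5. Soybean meal + P2 fish 5 and soybean meal + P1 fish 1 and 2 were on slide 6 with corn gluten fish 3 and 4. Soybean meal + P1 fish 3 to 5 were on slides 3 and 5 with soybean meal fish. Whether a package or a slide changed the position was not tested.

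Fish meal control fish thus lay among the corn gluten fish at these probes. At 1304 of the 1422 higher probes and 1814 of the 1903 lower probes, the control mean was nearer to corn gluten than to soybean meal, against 75.1% over all probes. Relative to corn gluten, the median level of the higher probes was 0.63 with soybean meal, 0.60 with soybean meal + P1, 0.45 with soybean meal + P2, 0.04 with corn gluten + P2 and 0.01 in control fish. For the lower probes it was −0.72 with soybean meal, −0.60 with soybean meal + P1, −0.37 with soybean meal + P2, −0.04 with corn gluten + P2 and 0.04 in control fish. All of these values share the corn gluten fish, and the soybean meal and corn gluten fish chose the probes. That choice can make values in the other soybean meal diets smaller, and how much of the shortfall came from it was not tested. An effect of a package or of a slide, and the difference between soybean meal + P1 and soybean meal + P2, were not tested either.

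**Figure D5:**
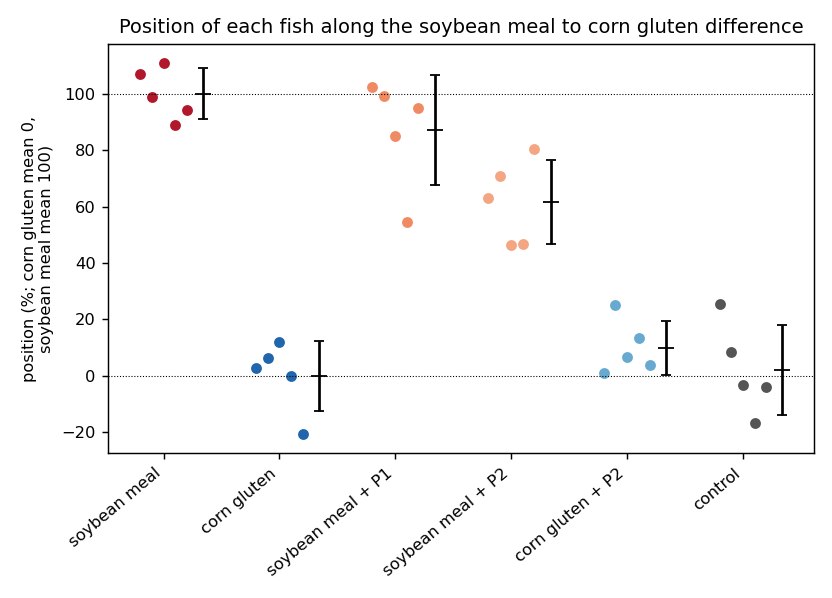
Position of each fish (y axis, percent) by diet (x axis), where 0 is the corn gluten mean and 100 the soybean meal mean over the 3325 probes. Points are single fish, and bars are the mean ± SD of 5 fish. Control and corn gluten + P2 fish lie between −16.8% and 25.6%, and the fish of both soybean meal diets with a package between 46.5% and 103%.

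Distances over all probes put the separation beside the spread within a diet. A soybean meal and a corn gluten fish were 0.951 log2 units apart on average (root mean square over 13322 probes with a value on every array, 0.795 to 1.08 over 25 pairs). Pairs of soybean meal fish were 0.764 apart (0.675 to 0.879 over 10 pairs), and pairs of corn gluten fish 0.749 (0.621 to 0.863 over 10 pairs). The first principal component of these 10 arrays held 33.8% of the variance. It ran from 30.5 to 45.9 in soybean meal fish and from −51.5 to −26.6 in corn gluten fish. The SD among fish had a median over probes of 0.284 with soybean meal and 0.257 with corn gluten, and it was larger with soybean meal at 56.5% of the probes.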

How the data were processed

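RNA of the distal intestine of 30 salmon was measured on 1 array per fish. Per the file headers, the deposited files hold spot intensity from Agilent Feature Extraction 12.0.1.1, whose processed signal is corrected for background on each array but not scaled between arrays, and flags for spots above background, saturated (0) or outliers (598, treated as missing). The authors also deposited a table of intensity values. On each array at least 98.8% of its values lay within 1 unit of the spot median minus the local background, times 1 fitted factor. The factor was 0.522 to 0.764, and the table was an alternative only.

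The log2 processed signal minus the array's 75th percentile was used. Of 14841 probes, 13577 were well above background on at least 5 arrays. A linear model with 1 coefficient for each of the 6 diets was fitted to the 30 arrays with limma 3.58.1 in R 4.3.3, with Benjamini-Hochberg adjustment over all kept probes. The fit was tested on simulated data with independent noise and no slide, tank or place effects. That test cannot speak to such effects in these data. Single array measures were compared by permutation tests over all 252 arrangements, which are exact except for the distances between fish. That exactness holds only if fish are independent, which shared tanks would break. The 2 probes with the highest and the 2 with the lowest differences were named, among those past the threshold and detected in all 10 fish. Arrays were assigned to diets by their labels, but the comparison and the lists were chosen with earlier results of these data known. None of the 24 gene lists could be used, as 0 identifiers matched the RefSeq table given for the species. The number of arrays limits the precision.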

Additional observations from a re-analysis of the deposited data

Results flagged for a closer look

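Among 38 groups of 5 fish examined for a fish far from the rest, 3 held one, and chance gives about 1 in 20. Corn gluten fish 2 had the highest corn gluten level of Ssa#S47729315, at −2.44, far from the other 4. At Ssa#S30235658, soybean meal + P1 fish 4 stood apart at −1.98, on the side of the corn gluten fish. At Ssa#GRASP209733777, control fish 1 stood apart at −4.87, on the side of the soybean meal fish. The difference between soybean meal and corn gluten differed with and without P2 at 14 probes in limma.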

How the results depend on the processing

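The 3325 probes between soybean meal and corn gluten became 1839 with normexp background correction, in which 3041 of them kept their direction and the median of all probes was 0.16. They became 1825 with slide as a block and 1089 without the fish of the shared slide, which left only fish 3 and 4 of corn gluten. Leaving out 1 fish gave 2496 to 3303. The P2 pair, at 2563, became 1363 with normexp, where the median of all probes was −0.12, and 1142 with slide as a block, and 1780 to 2572 with 1 fish left out. Higher probes were 47.1% of the P2 calls and 65.3% with array medians. The interaction, at 14, became 211 with quantile normalization, 123 with array medians, 0 with normexp, 3 in the authors' table, 2 without a filter, 2 for probes detected on all arrays compared, 108 with only the diets compared, 0 with slide as a block, 63 with a replicate block, 0 with fish of consecutive numbers in the deposited names as a random block, 9 with an intensity trend, 110 with block medians removed, 0 for probes brighter than the median and 0 to 341 with 1 fish left out. With that random block 3182 probes passed between soybean meal and corn gluten, and 2404 in the P2 pair. The correlation within blocks was estimated at 0.0422. No label ties those consecutive fish to a tank, and they also shared a slide. Settings at 0 had 916 to 2483 probes at an unadjusted p below 0.05 in limma.

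Probes detected in soybean meal alone numbered 78, and in corn gluten alone 76, when at least 4 fish of one diet and at most 1 of the other were required. Leaving out 1 fish gave 11 to 21 and 15 to 25. Without 1 fish, the array measures differed between diets by −50.9 to 70.9 detected probes, 0.07 to 0.16 log2 units in the 75th percentile, −0.24 to 0.40 percentage points in the share of the brightest probes, and −0.01 to 0.03 in distance, and none passed. Same-numbered fish correlated at −0.28 to 0.22 between soybean meal and corn gluten, and fish of unlike number at −0.284 to 0.325. These few values cannot settle whether the numbers pair fish, and the main fit did not pair them. With fish number as a replicate block 3386 probes passed, and 2680 in the P2 pair. All named probes passed under every setting except the one named above for Ssa#GRASP209733777. With normexp their differences were 5.19, 3.59, −4.53 and −4.32 in the order of the text. Where a count changed, the cause was not tested. Scaling by spike-in controls was not run, as 3 of 10 control sequences were above background on all spots and the highest averaged 46.4 units. Dim probes limit the precision.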
